A study of Arabidopsis thaliana with 48 samples.

Results

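The gi-2 mutant of Arabidopsis thaliana was compared with wild type at ZT8, which is 8 h after lights on and the time of day at which the wild-type transcript of GIGANTEA (GI) was highest among the times sampled. The libraries were chosen by genotype and time of harvest alone: 4 libraries of gi-2 (2 under drought and 2 under normal watering) were set against 4 of wild type with the same split, 8 of the 48 in the series. The allele gi-2 was the only mutant allele of GI compared, and both genotypes are of the Columbia ecotype. Plants were 3 weeks old and had been raised in short days with 8 h of light, so ZT8 is the end of the light period and comes before the light was extended. Drought meant a soil water content held at 30% from soon after germination, against 80 to 90% under normal watering. Each library was made from the pooled aerial parts of about 50 seedlings from 3 pots. The 2 libraries of a group are labelled biological replicates. The aba1-6 libraries of the series entered only the filter on low counts, the scaling and the estimate of the spread between replicates. RNA was polyadenylated RNA from whole shoots, so fewer cells of a type and less RNA per cell cannot be told apart.

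GI is a large protein found only in plants, which acts in the nucleus in the circadian clock and in the measurement of day length. Late in the day it binds the blue-light receptor F-box protein FKF1, and the complex marks CYCLING DOF FACTOR (CDF) repressors for breakdown, which frees transcription of CONSTANS (CO) and, in leaves of plants in long days, of the flowering signal FT. GI also stabilises the related F-box protein ZTL, which acts on the clock proteins TOC1 and PRR5. In the clock itself, morning factors of the CCA1 and LHY family, the activators RVE4 and RVE8 with their LNK partners, the PRR proteins and the evening complex of ELF3, ELF4 and LUX act on each other in turn through the day. GI is also known for a part in drought escape, the earlier flowering of water-limited plants in long days, which needs abscisic acid (ABA).

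Promoter sequences of GI and of 3 strongly changed genes are shown, GI because it is the mutated gene and the others because they hold a match to a site through which clock or ABA factors act. Each is the 250 bases before the annotated start in the NCBI RefSeq TAIR10.1 reference, read 5′ to 3′ on the strand of the gene. Capitals mark any match, on either strand, to the evening element AAAATATCT, the CCA1 binding site AAAAATCT, the G-box CACGTG or the ABA response element ACGTGTC or ACGTGGC, the last 2 of which can overlap a G-box. The windows are chr1:8061501-8061750 (plus strand) for GI, chr5:14753089-14753338 (minus strand) for RVE2, chr3:12348797-12349046 (plus strand) for QQS and chr5:24003638-24003887 (plus strand) for BOA.
GI: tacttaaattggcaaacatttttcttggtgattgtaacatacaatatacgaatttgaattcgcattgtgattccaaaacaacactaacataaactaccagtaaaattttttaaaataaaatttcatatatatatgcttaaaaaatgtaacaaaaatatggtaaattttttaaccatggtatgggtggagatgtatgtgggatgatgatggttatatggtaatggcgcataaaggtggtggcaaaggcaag
RVE2: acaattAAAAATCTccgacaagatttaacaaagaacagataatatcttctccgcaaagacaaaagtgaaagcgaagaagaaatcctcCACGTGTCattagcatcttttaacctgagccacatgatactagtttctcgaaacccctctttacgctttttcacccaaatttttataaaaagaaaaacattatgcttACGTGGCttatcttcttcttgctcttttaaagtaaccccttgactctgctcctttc
QQS: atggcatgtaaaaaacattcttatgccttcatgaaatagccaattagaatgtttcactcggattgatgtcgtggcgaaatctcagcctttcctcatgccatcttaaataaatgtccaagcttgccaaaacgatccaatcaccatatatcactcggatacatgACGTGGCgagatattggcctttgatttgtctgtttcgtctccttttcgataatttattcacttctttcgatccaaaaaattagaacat
BOA: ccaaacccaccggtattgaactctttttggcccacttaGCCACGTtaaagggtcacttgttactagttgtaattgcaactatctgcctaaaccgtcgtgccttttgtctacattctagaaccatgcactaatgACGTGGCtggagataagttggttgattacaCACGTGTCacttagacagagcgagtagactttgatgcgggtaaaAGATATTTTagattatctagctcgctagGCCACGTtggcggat
The GI window held none of these letters, RVE2 a CCA1 site, a G-box and ABA elements, QQS an ABA element, and BOA an evening element, a G-box and ABA elements. Among genes called higher in gi-2, called lower in gi-2 and all genes tested, an evening element stood in 2.45%, 5.25% and 2.54% of promoters. In the same order the shares were 7.94%, 13.1% and 7.4% for the ABA element, 8.95%, 8.4% and 7.48% for the G-box, and 7.5%, 8.14% and 6.9% for the CCA1 site. These shares, over 693, 381 and 18767 promoters, are given as a description with no test.

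Total counts of the ZT8 libraries ran from 7007845 to 14452135 in gi-2 and from 4714569 to 11703355 in wild type, and between 19311 and 20206 genes were detected in each. The first principal component of the 8 libraries (35.3% of the variance) separated drought from normal watering, and the second (18%) separated gi-2 (scores of 16.2 to 27.3) from wild type (-48.5 to -4.69). The wild-type normal replicate 1 library, the shallowest of the 8, stood apart at -48.5, while the other 3 wild-type libraries lay between -17.8 and -4.69. Summed marker levels per library overlapped between the genotypes. Root markers, for a tissue not harvested, came to 43.2 to 55.6 CPM (counts scaled to library size) in gi-2 and 38.4 to 67.5 CPM in wild type over 10 measured genes, with PLT2 and RHD6 at 0. SCR alone stood at 25.6 to 37.4 CPM and CASP1 at 0.478 to 2.28 CPM, so the sum rests mostly on a few members. Whether it reflects root tissue was not tested. Guard cell markers summed to 152 to 178 CPM in gi-2 and 150 to 180 CPM in wild type over 13 genes. Floral organ and meristem markers, with CAL, WUS, UFO and SUP at 0, summed to 18.1 to 29.5 CPM in gi-2 and 13.8 to 19.6 CPM in wild type over 11 genes. The 15 seed markers summed to 0.285 to 1.31 CPM in gi-2 and 0.799 to 4.85 CPM in wild type, with 8 of them at 0.

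The GI transcript, from the mutated gene itself (AT1G22770, chr1:8061751-8067790), was lower in gi-2 at ZT8 in both watering regimes. Values per library are given here and below in the order normal replicates 1 and 2, then drought replicates 1 and 2. GI stood at 146, 134, 165 and 157 CPM in gi-2, against 306, 296, 315 and 243 CPM in wild type, and the highest gi-2 library lay well below the lowest wild-type one. The log2 fold change of gi-2 over wild type was -0.95 ± 0.10 (SE, here and below approximated from the F of the test) over both regimes (edgeR quasi-likelihood test with Benjamini-Hochberg adjustment over all 19037 genes tested, adjusted p = 8.74e-09). It was -1.10 under normal watering (adjusted p = 4.17e-06) and -0.79 under drought (adjusted p = 0.000252). The transcript was thus present in every gi-2 library, and GI protein was not measured.

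**Figure D1:**
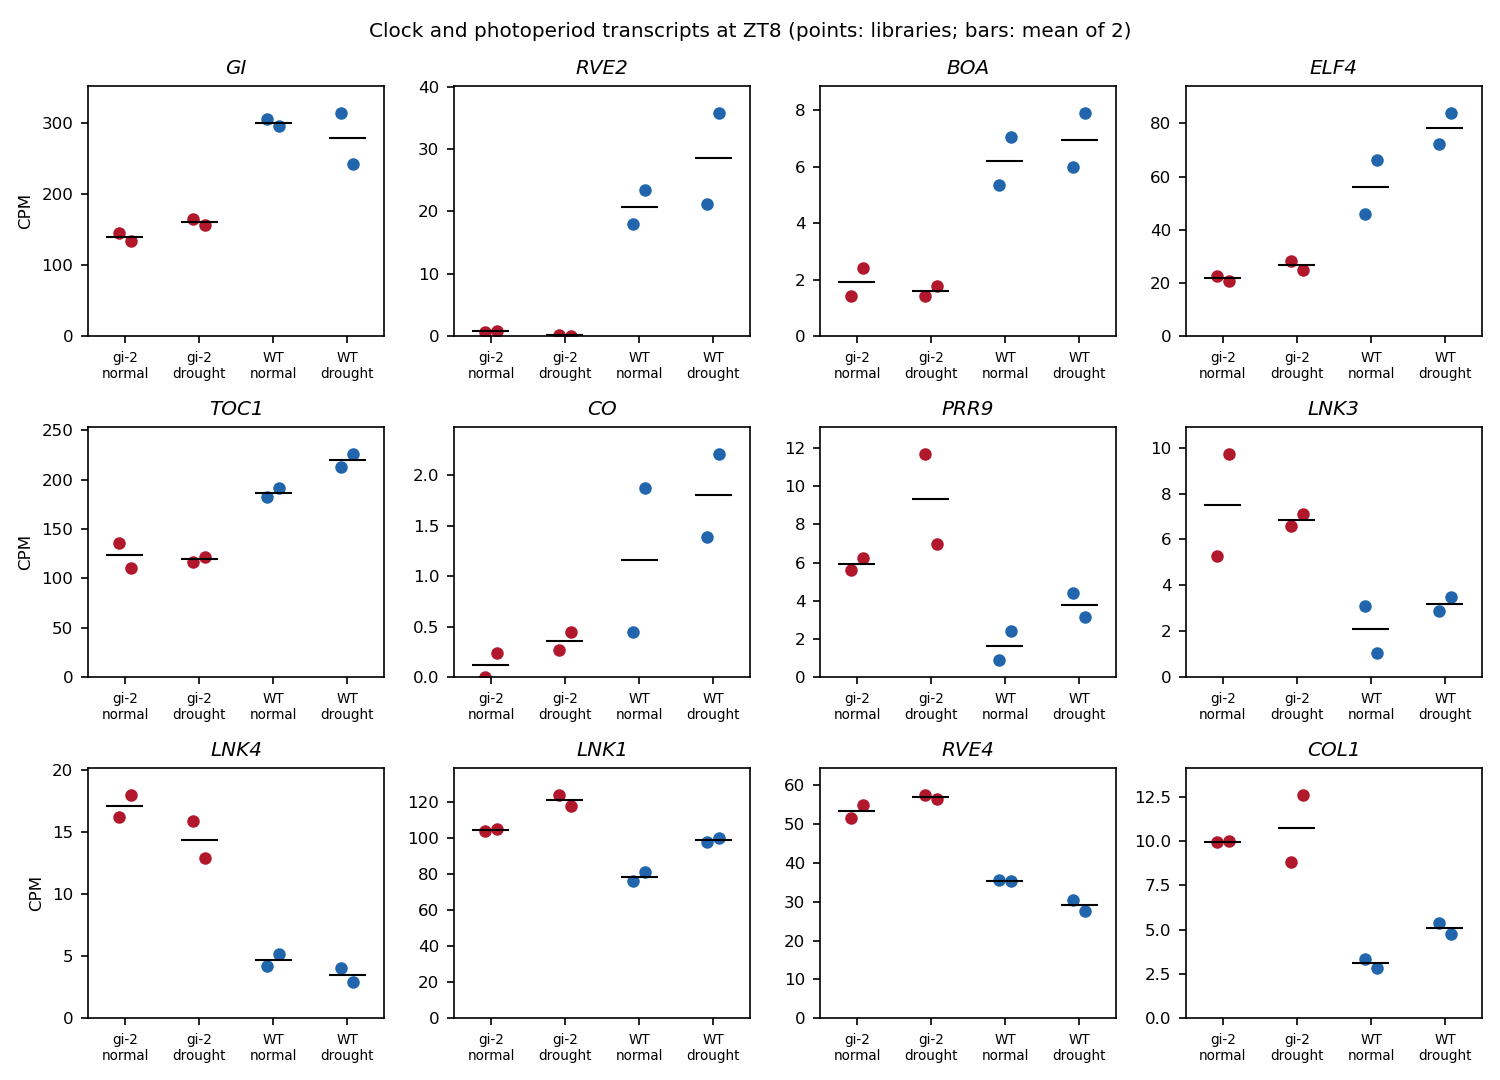
Levels in CPM (counts scaled to library size) of 12 clock and photoperiod transcripts in the 8 ZT8 libraries, with gi-2 in red and wild type in blue, 1 point per library and a bar at the mean of 2. For GI all gi-2 points lie between 134 and 165 CPM and all wild-type points between 243 and 315 CPM, and the panels of LNK1, LNK3, LNK4, RVE4, COL1 and PRR9 show the opposite order without overlap.

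Over both watering regimes, 1084 genes were called (adjusted p under 0.05), which is 5.69% of those tested. Of these, 702 were higher in gi-2 (3.69% of all genes tested) and 382 lower (2.01%), and 107 and 59 of them differed by at least 2-fold. The median log2 fold change of all genes tested was 0.01. In 648 of the 1084 called genes the 4 gi-2 libraries did not overlap the 4 wild-type libraries, while 1392 of all genes tested showed such a separation. The count of calls was 649 to 1019 with any 1 of the 8 libraries left out. It was 649 without the wild-type normal replicate 2 library, which leaves the wild-type library that stands apart as the lone one of its group, 702 without gi-2 normal replicate 2 and 719 without wild-type drought replicate 2.

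Photoperiod genes downstream of GI moved unequally. CO, the activator of FT, was lower in gi-2, with 0, 0.24, 0.274 and 0.444 CPM in gi-2 against 0.445, 1.87, 1.39 and 2.21 CPM in wild type. Only the wild-type normal replicate 1 library, at the level of the highest gi-2 library, came near the mutant range. CO differed by -2.87 ± 0.67 on the log2 scale (adjusted p = 0.00432), but without wild-type normal replicate 2 its adjusted p was 0.325. FT had 0 counts in all 8 libraries, and 3 counts over 4 libraries would correspond to 0.0789 CPM in gi-2 and 0.0817 CPM in wild type, limits that cover counting error only. FT was at 0 in gi-2 at ZT12 and ZT16 as well, whereas wild type averaged 1.02 CPM under normal watering and 0.813 CPM under drought at ZT12, and 3.22 and 3.99 CPM at ZT16 (n = 2 each).

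Upstream of CO, FKF1 itself averaged 113 CPM in gi-2 and 130 CPM in wild type and was not called (-0.20, adjusted p = 0.307). ZTL (46.7 CPM in gi-2, 43.8 CPM in wild type) and LKP2 (19.0 and 17.9 CPM), its F-box relatives, were not called either (adjusted p = 0.686 and 0.826). Of the CDF repressors, CDF3 fell by 0.32 on the log2 scale (adjusted p = 0.0366), and it kept its call only without wild-type drought replicate 1, reaching 0.148 without wild-type drought replicate 2. CDF2 averaged 1.51 CPM in gi-2 and 2.65 CPM in wild type (-0.85, adjusted p = 0.0694).

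The CONSTANS-like genes differed among themselves, with COL1 and COL5 higher and COL9 lower in gi-2. COL1, a close relative next to CO on chromosome 5, stood at 9.92, 9.97, 8.84 and 12.6 CPM in gi-2 against 3.34, 2.85, 5.39 and 4.74 CPM in wild type. All gi-2 libraries were higher, with a log2 fold change of 1.38 ± 0.17 (adjusted p = 1.72e-07). COL9, which delays flowering when overproduced, had 36.9, 34.9, 32.1 and 32.0 CPM in gi-2 against 111, 111, 110 and 123 CPM in wild type. COL9 was thus lower in every gi-2 library, by -1.74 ± 0.13 (adjusted p = 1.27e-12), and within each genotype its libraries lay close together. It was named by a rule that required the libraries of the genotypes to be separate. COL5 was higher by 0.38 ± 0.09 (adjusted p = 0.00605), a call lost without gi-2 drought replicate 2 (0.0504) or wild-type normal replicate 2 (0.0551).

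Among the remaining genes of the pathway, SPA1, the partner of the ubiquitin ligase COP1 that removes CO protein in darkness, had 127, 132, 154 and 143 CPM in gi-2. Wild type had 96.5, 107, 98.9 and 99.9 CPM of SPA1, below every gi-2 library (0.46 ± 0.07, adjusted p = 2.52e-05). COP1 itself averaged 46.6 CPM in gi-2 and 38.8 CPM in wild type (adjusted p = 0.0789). The floral repressor SMZ was called higher (0.46 ± 0.14, adjusted p = 0.0433), but it was kept only without gi-2 drought replicate 2, and its adjusted p was 0.289 without gi-2 drought replicate 1. The flowering repressors SVP (112 CPM in gi-2, 103 CPM in wild type), FLC (22.5 and 18.4 CPM) and MAF1 (39.0 and 40.4 CPM) were not called. Neither was the flowering promoter SOC1 over both regimes (16.3 and 20.3 CPM, adjusted p = 0.327). In all, 4 of 26 tested members of the photoperiodic flowering list rose and 3 fell, with a median of 0.04, beside 3.69% and 2.01% of all genes tested. The 3 that fell were CO, CDF3 and GI, which is the mutated gene itself and a member of the list by choice. With 1 library left out the counts were 2 to 3 and 1 to 3. Without wild-type normal replicate 2 they were 2 and 1, and the count of 3 that fell was 2 or 3 without any other library.

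Morning clock genes were mostly higher in gi-2 at the end of the day, with 1 exception that was lower. Of 12 tested members 7 rose and 1 fell, against 3.69% and 2.01% of all genes, and the list's median was 0.60 beside 0.01 for all genes. LNK4 had 16.2, 18.0, 15.9 and 12.9 CPM in gi-2 against 4.22, 5.17, 4.09 and 2.95 CPM in wild type, with no overlap (1.93 ± 0.16, adjusted p = 3.62e-12). Its relative LNK3 had 5.26, 9.73, 6.58 and 7.1 CPM in gi-2 against 3.11, 1.07, 2.87 and 3.48 CPM in wild type, again with every gi-2 library higher (1.61 ± 0.24, adjusted p = 9.32e-06). LNK1 and LNK2, the better studied coactivators of this family, changed less. LNK1 had 104, 105, 124 and 118 CPM in gi-2 against 76, 81, 97.6 and 99.9 CPM in wild type (0.35 ± 0.08, adjusted p = 0.0036). LNK2 averaged 40.1 CPM in gi-2 and 26.7 CPM in wild type (0.58 ± 0.14, adjusted p = 0.00828), a call lost without gi-2 drought replicate 1 (0.0588), wild-type normal replicate 1 (0.052) or wild-type drought replicate 1 (0.0603).

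The MYB-like activators with which LNK proteins work were higher too. RVE4 stood at 51.6, 55.0, 57.5 and 56.4 CPM in gi-2 against 35.6, 35.2, 30.5 and 27.6 CPM in wild type. The gi-2 libraries formed a narrow band above all wild-type libraries (0.78 ± 0.09, adjusted p = 5.42e-08). RVE8, at a low level, had 2.03, 1.44, 2.6 and 3.11 CPM in gi-2 against 0.889, 1.25, 0.522 and 0.949 CPM in wild type (1.27 ± 0.30, adjusted p = 0.00549, or 0.0638 without gi-2 normal replicate 1). PRR9, a repressor of CCA1 and LHY that is expressed in the morning, had 5.62, 6.25, 11.7 and 6.96 CPM in gi-2 against 0.889, 2.41, 4.43 and 3.16 CPM in wild type. Every gi-2 library exceeded every wild-type one (1.48 ± 0.22, adjusted p = 5.95e-06). The core repressors themselves were low at ZT8 in both genotypes and were not called: LHY averaged 0.965 CPM in gi-2 and 0.796 CPM in wild type (adjusted p = 0.619), and CCA1 3.93 and 2.74 CPM (adjusted p = 0.245).

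RVE2, a further MYB-like gene of the CCA1 family (AT5G37260, chr5:14751344-14753088), went the other way and had the largest fall among the genes named by rule. It was at 0.717, 0.841, 0.274 and 0 CPM in gi-2 against 18.0, 23.4, 21.2 and 35.8 CPM in wild type. The transcript was thus close to absent in all gi-2 libraries (-5.95 ± 0.43, adjusted p = 2.31e-10). Over the alternative settings the log2 fold change of RVE2 ran from -7.98 to -5.68. Its relative RVE1 averaged 0.461 CPM in gi-2 and 1.28 CPM in wild type (-1.44, adjusted p = 0.0674).

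Over both regimes, 3 of 12 tested evening clock genes were lower in gi-2 and 0 were higher, with a median of -0.26, beside 2.01% of all genes called lower and 3.69% called higher. The count was the same with any 1 library left out. Under drought alone ELF4-L3, a relative of ELF4, had 1.99 and 2.66 CPM in gi-2 against 0.174 and 0.843 CPM in wild type (2.2 ± 0.69, adjusted p = 0.0482). That call was lost without gi-2 drought replicate 1 (0.109), gi-2 drought replicate 2 (0.219) or wild-type drought replicate 1 (0.316). ELF4, a subunit of the evening complex, had 22.8, 20.8, 28.3 and 25 CPM in gi-2 against 45.8, 66.1, 72.4 and 84.0 CPM in wild type (-1.46 ± 0.13, adjusted p = 5.15e-11). TOC1, a repressor of morning genes, had 136, 111, 117 and 122 CPM in gi-2 against 182, 191, 213 and 226 CPM in wild type (-0.73 ± 0.10, adjusted p = 9.13e-07). BOA, a homologue of LUX, had 1.43, 2.4, 1.44 and 1.78 CPM in gi-2 against 5.34, 7.04, 6.0 and 7.9 CPM in wild type (-1.93 ± 0.27, adjusted p = 2.15e-06). For these 3 genes no gi-2 library reached the lowest wild-type library. The other subunits of the evening complex were not called: LUX averaged 61.8 CPM in gi-2 and 77.7 CPM in wild type (-0.33 ± 0.10, adjusted p = 0.0516), and ELF3 67.5 and 85.7 CPM (-0.33, adjusted p = 0.0837). PRR5 (123 CPM in gi-2, 107 CPM in wild type) and PRR3 (101 and 106 CPM) were not called at ZT8.

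Outside the clock and flowering lists, the genes with the largest changes were picked by a rule on size, level and separation of the libraries. AT2G15020 rose most, with 15.8, 21.8, 30.5 and 30.6 CPM in gi-2 against 1.33, 3.03, 5.39 and 5.16 CPM in wild type (2.72 ± 0.16, adjusted p = 6.5e-17). AT1G64500 had 21.4, 16.0, 28.9 and 30.8 CPM in gi-2 against 4.0, 4.01, 5.39 and 6.53 CPM in wild type (2.27 ± 0.14, adjusted p = 7.17e-16). QQS, an orphan gene known for its effect on leaf starch, had 11.8, 6.61, 14.1 and 6.36 CPM in gi-2 against 0.445, 1.78, 2.78 and 2.63 CPM in wild type (2.37 ± 0.36, adjusted p = 1.44e-05). In each of these 3 genes the gi-2 libraries lay wholly above wild type, as the rule on separation required.

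Others in this group were AFR, an F-box gene of far-red light responses (7.41 CPM in gi-2, 2.11 CPM in wild type, 1.79 ± 0.26, adjusted p = 6.19e-06), and GDH3, a glutamate dehydrogenase gene (3.02 and 0.863 CPM, 1.87 ± 0.40, adjusted p = 0.00153). The brassinosteroid-response gene BEE1 had 3.82, 3.12, 3.56 and 4.44 CPM in gi-2 against 2.67, 2.85, 0.522 and 0.422 CPM in wild type (1.67 ± 0.33, adjusted p = 0.000596). The gap in BEE1 was wide under drought and narrow under normal watering. XTH17, a xyloglucan-modifying enzyme gene, rose by 1.63 ± 0.35 (adjusted p = 0.00192, or 0.07 without wild-type normal replicate 2). AT5G44590 rose by 2.01 ± 0.54 (adjusted p = 0.0183). That call was lost without gi-2 normal replicate 1 (0.0589), gi-2 drought replicate 1 (0.0768), either wild-type normal replicate (0.0635 without replicate 1, 0.0908 without replicate 2) or wild-type drought replicate 1 (0.101).

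Among the largest falls after RVE2, AT1G53490 had 2.03, 1.68, 2.12 and 3.11 CPM in gi-2 against 22, 25.6, 23.7 and 35.4 CPM in wild type (-3.62 ± 0.19, adjusted p = 8.7e-18). This gene (chr1:19963267-19966952) overlaps MRD1, so reads may be shared between them. AT1G45165 had 0.478, 0.601, 1.1 and 1.63 CPM in gi-2 against 11.8, 12.6, 8.52 and 7.38 CPM in wild type (-3.54 ± 0.30, adjusted p = 1.19e-11). AT4G33980 had 13.4, 10.3, 9.32 and 9.92 CPM in gi-2 against 30.0, 32.1, 51.7 and 61.9 CPM in wild type (-1.98 ± 0.15, adjusted p = 1.18e-12). In wild type AT4G33980 was higher under drought than under normal watering, and in gi-2 it was not. AT2G15042 (5.34 CPM in gi-2, 17.8 CPM in wild type, -1.75 ± 0.27, adjusted p = 3.21e-05) and AT1G67865 (8.33 and 26.0 CPM, -1.61 ± 0.27, adjusted p = 0.000246) were lower in all gi-2 libraries, as the rule on separation required. MAM3, a chain-elongation enzyme of aliphatic glucosinolates, fell by 1.62 ± 0.37 (adjusted p = 0.00677, or 0.0742 without gi-2 drought replicate 1). AT3G50810 fell by 2.18 ± 0.43 (adjusted p = 0.00065, or 0.195 without wild-type normal replicate 2).

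Ranked by the change in mean CPM, which favours long and abundant transcripts, RCA stood first among the rises. RCA, which encodes the Rubisco activase, had 5600, 5920, 6690 and 7780 CPM in gi-2 against 4640, 4060, 4650 and 3210 CPM in wild type, with no overlap (0.64 ± 0.14, adjusted p = 0.00229). The nitrilase gene NIT1 averaged 1170 CPM in gi-2 and 841 CPM in wild type (0.51 ± 0.10, adjusted p = 0.000535). A transcript listed as GGT1, a name that could not be matched to 1 locus, averaged 1910 and 1390 CPM (0.46 ± 0.08, adjusted p = 0.000226). GUN5, for the H subunit of magnesium chelatase, rose by 0.55 ± 0.15 (adjusted p = 0.0168). SBPASE, for a Calvin cycle phosphatase, rose by 0.43 ± 0.12 (adjusted p = 0.0186). Both calls were lost without either gi-2 normal replicate, gi-2 drought replicate 2, wild-type normal replicate 2 or wild-type drought replicate 2, with the highest adjusted p (0.169 for GUN5 and 0.188 for SBPASE) without the last.

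On the falling side of that ranking, AT5G42530 had 313, 563, 153 and 177 CPM in gi-2 against 518, 635, 559 and 730 CPM in wild type (-1.18 ± 0.23, adjusted p = 0.00159). Its separation lay in the drought libraries, while the normal ones overlapped. RD29A is described with the ABA genes below. AT1G13930 fell by 0.43 ± 0.11 (adjusted p = 0.0142, lost without gi-2 normal replicate 2 at 0.116 or gi-2 drought replicate 1 at 0.0815). TCTP, a growth-associated protein gene, fell by 0.41 ± 0.11 (adjusted p = 0.0159). Its call was lost without gi-2 normal replicate 1 (0.107), gi-2 drought replicate 1 (0.0776), wild-type normal replicate 2 (0.0822) or wild-type drought replicate 2 (0.187). The call of GSTF9, a glutathione transferase gene (-0.32 ± 0.10, adjusted p = 0.0415), was lost whichever of the 8 libraries was left out (0.0765 to 0.144).

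The study's title places GI in transcriptional responses to ABA. ABA-induced genes, which encode dehydrins, phosphatases that restrain ABA signalling and transcription factors, differed between the genotypes mainly under drought. Over both regimes 1 of 34 tested members rose and 4 fell, with a median of -0.29, beside 3.69% and 2.01% of all genes. The count of 4 was 12 without the filter on low counts and 2 with only the 8 ZT8 libraries and a replicate block. Under drought alone 10 fell and 0 rose, with a median of -0.79, beside 5.34% of all genes called and a median of 0. Under normal watering 1 rose and 0 fell, with a median of 0.18, beside 1.19% of all genes called. The drought count was 4 without gi-2 drought replicate 2, 6 without gi-2 drought replicate 1 or wild-type drought replicate 2, and 21 without the filter on low counts. Only ERD10 and GBF3 passed the test of the difference between the regimes (0.357% of all genes did), so for the other members a difference between regimes was not shown.

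**Figure D2:**
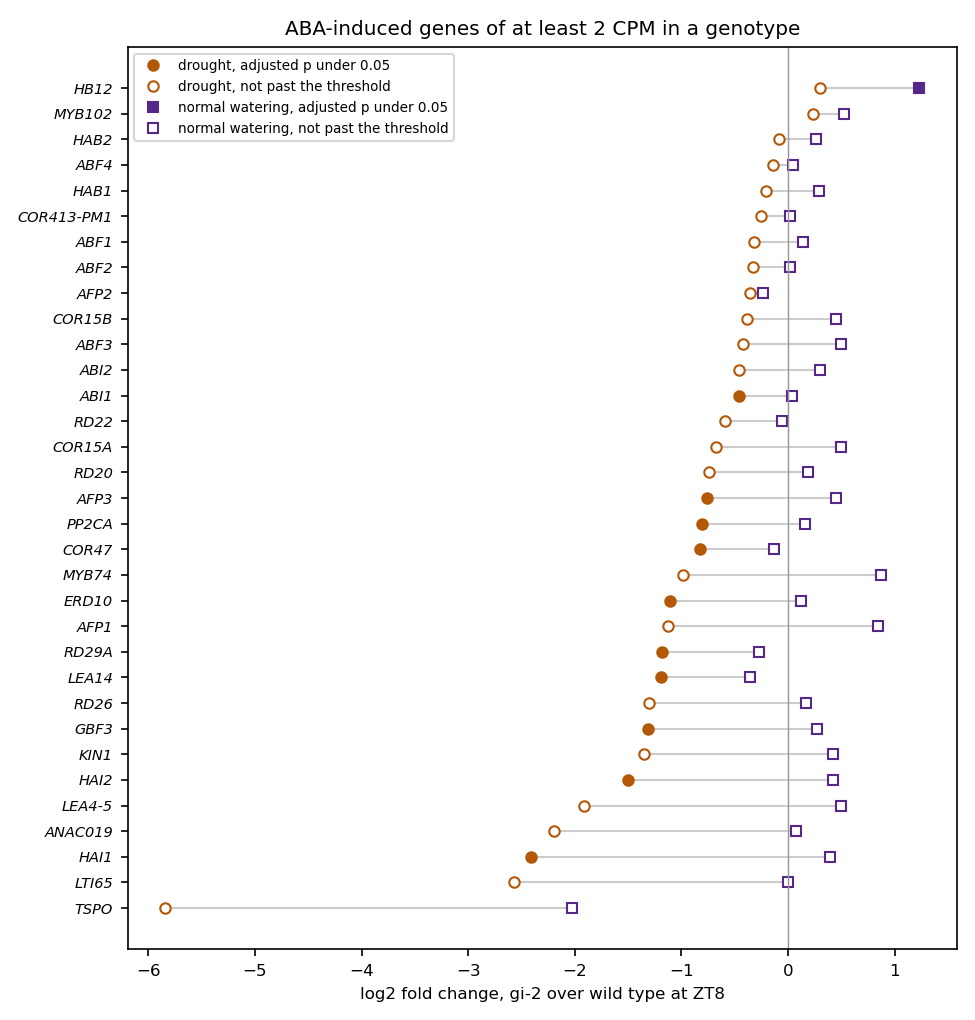
Log2 fold change of gi-2 over wild type at ZT8 for the 33 ABA-induced genes with at least 2 CPM in a genotype, under drought (circles) and normal watering (squares), with filled symbols for an adjusted p under 0.05. The filled circles of ERD10 (-1.11), RD29A (-1.18), HAI2 (-1.50) and HAI1 (-2.41) lie left of 0, and HB12 has the only filled square (1.23).

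The dehydrin gene ERD10 had 359, 319, 373 and 364 CPM in gi-2 against 267, 354, 819 and 772 CPM in wild type. The 2 wild-type drought libraries stood above the other 6, which lay in 1 range. Under drought ERD10 differed by -1.11 ± 0.16 (adjusted p = 5.86e-06), and the difference of the gi-2 effect between drought and normal watering was -1.23 ± 0.23 (adjusted p = 0.00313, or 0.1 without wild-type normal replicate 1). RD29A, a widely used marker of the dehydration response, had 1190, 1230, 1210 and 1200 CPM in gi-2 against 1310, 1620, 2870 and 2590 CPM in wild type. RD29A was level across the gi-2 libraries, and it differed by -0.72 ± 0.16 over both regimes (adjusted p = 0.0046) and by -1.18 ± 0.23 under drought (adjusted p = 0.00126). The dehydrin gene COR47 had 608, 604, 441 and 495 CPM in gi-2 against 654, 674, 825 and 839 CPM in wild type (-0.48 ± 0.12, adjusted p = 0.00581). In COR47 the drought libraries were the lowest of gi-2 and the highest of wild type. LEA14, named after its values were seen, had 127, 107, 127 and 127 CPM in gi-2 against 154, 148, 300 and 283 CPM in wild type (-0.78 ± 0.19, adjusted p = 0.00957). Under drought alone it differed by -1.19 ± 0.26 (adjusted p = 0.00499, lost without gi-2 drought replicate 1 at 0.0614 or replicate 2 at 0.066).

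The phosphatase genes named next, and AFP3, were chosen after their values were seen. PP2CA had 75.7, 69.3, 96.2 and 76.8 CPM in gi-2 against 60.7, 68.5, 142 and 163 CPM in wild type (under drought -0.81 ± 0.18, adjusted p = 0.00317, lost without gi-2 drought replicate 2 at 0.12 or wild-type drought replicate 2 at 0.0794). HAI2 had 5.26, 4.45, 13 and 7.99 CPM in gi-2 against 4, 3.39, 30.7 and 30.1 CPM in wild type (under drought -1.50 ± 0.33, adjusted p = 0.00363, or 0.124 without gi-2 drought replicate 2). In both genes the 2 wild-type drought libraries stood above the rest, while under normal watering the gi-2 libraries were slightly the higher ones. HAI1, ABI1 and AFP3, which encodes a binding protein of the ABI5 family, were called under drought as well (adjusted p = 0.0397, 0.0396 and 0.0404). HAI1 and ABI1 lost the call without any 1 of the 4 drought libraries (up to 0.314 and 0.373, both without gi-2 drought replicate 2). AFP3 lost it without gi-2 drought replicate 1 (0.261), gi-2 drought replicate 2 (0.157) or wild-type drought replicate 2 (0.369). The abundant cold- and ABA-regulated genes COR15A (1820 CPM in gi-2, 2210 CPM in wild type) and COR15B (1150 and 1210 CPM), which are neighbouring close copies, were not called over both regimes. The order of their means turned between the regimes, but neither gene was called in either regime alone. A difference between regimes was not shown for them. COR15A averaged 1580 CPM in gi-2 and 1110 CPM in wild type under normal watering, and 2060 and 3300 CPM under drought. For COR15B these means were 1020 and 745 CPM, and 1270 and 1670 CPM. HB12, a homeodomain gene and the 1 member that rose, had 12.2, 14.5, 14.4 and 16.1 CPM in gi-2 against 7.56, 4.64, 10.9 and 13.8 CPM in wild type (0.77 ± 0.19, adjusted p = 0.00853). Its call was lost without gi-2 normal replicate 2 (0.0554) or wild-type normal replicate 2 (0.178).

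In the list of ABA synthesis and breakdown genes 2 of 18 tested members were higher and 0 lower, with a median of 0.03. As for the receptor and cold lists below, this stands beside 3.69% of all genes called higher and 2.01% called lower. ABA1, the zeaxanthin epoxidase gene, had 172, 191, 202 and 205 CPM in gi-2 against 130, 116, 150 and 89.4 CPM in wild type (0.66 ± 0.13, adjusted p = 0.000609). The carotenoid cleavage gene NCED4 had 158, 198, 155 and 198 CPM in gi-2 against 143, 114, 89.8 and 78.2 CPM in wild type (0.77 ± 0.13, adjusted p = 5.58e-05). NCED4 is in the list by its name, and a part of it in ABA synthesis was not tested. In both genes every gi-2 library was above every wild-type one. Of 14 ABA receptor and SnRK2 kinase genes, 2 rose and 0 fell, with a median of 0.09. The receptor gene PYL1 averaged 18.5 CPM in gi-2 and 12.2 CPM in wild type (0.60 ± 0.12, adjusted p = 0.000821). The kinase gene SNRK2.8 rose by 0.52 ± 0.16 (adjusted p = 0.0393), a call kept only without wild-type normal replicate 2 and at 0.157 without wild-type normal replicate 1. In the list of CBF and cold genes 1 of 16 rose and 1 fell, with a median of -0.05. The dehydrin gene ERD14 fell by 0.40 ± 0.11 (adjusted p = 0.0171, lost without gi-2 normal replicate 1 at 0.0807, gi-2 drought replicate 1 at 0.0938 or wild-type normal replicate 2 at 0.0702). GOLS1, a galactinol synthase gene, rose by 1.34 ± 0.40 (adjusted p = 0.0462), a call kept only without gi-2 normal replicate 2 and at 0.194 without gi-2 normal replicate 1.

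Light signalling and growth genes included 3 that rose and 0 that fell among 18 tested, with a median of 0.13, beside 3.69% of all genes called higher and 2.01% called lower. HFR1, an atypical bHLH protein that holds PIF factors back, had 15.3 to 19.9 CPM in gi-2 against 6.22 to 9.18 CPM in wild type (1.2 ± 0.16, adjusted p = 1.36e-06). PIF5, a growth-promoting factor, averaged 81.4 CPM in gi-2 and 58.5 CPM in wild type (0.48 ± 0.08, adjusted p = 5.27e-05), and the B-box gene BBX28 11.8 and 6.24 CPM (0.89 ± 0.17, adjusted p = 0.000367). All gi-2 libraries lay above wild type in these 3 genes. PIF4 averaged 152 CPM in gi-2 and 128 CPM in wild type and was not called (0.25, adjusted p = 0.0883).

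In chlorophyll synthesis 4 of 15 tested genes rose and 0 fell, with a median of 0.07, beside 3.69% of all genes called higher and 2.01% called lower. The count was 2 without either gi-2 normal replicate, gi-2 drought replicate 2, wild-type normal replicate 2 or wild-type drought replicate 2, and 4 without any other library. HEMA1, for glutamyl-tRNA reductase at the entry of the pathway, had 287, 256, 242 and 270 CPM in gi-2 against 177, 178, 153 and 117 CPM in wild type (0.77 ± 0.12, adjusted p = 2.38e-05). GUN4, an activator of magnesium chelatase, had 80.9, 80.8, 78.0 and 83.0 CPM in gi-2 against 65.8, 56.8, 50.3 and 48.8 CPM in wild type (0.55 ± 0.10, adjusted p = 0.000173). Both were higher in every gi-2 library. CRD1, a subunit of the cyclase of this pathway, rose by 0.36 ± 0.11 (adjusted p = 0.0444) and, like GUN5 above, lost its call without either gi-2 normal replicate, gi-2 drought replicate 2, wild-type normal replicate 2 or wild-type drought replicate 2, at most to 0.289 without the last.

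Other photosynthesis and starch lists are set beside the 5.69% of all genes tested that were called. In the light-harvesting and photosystem list 2 of 29 rose and 0 fell, with a median of -0.08. These were RCA and LHCB2.1, an antenna gene with a close copy (1020 CPM in gi-2, 716 CPM in wild type, 0.53 ± 0.14, adjusted p = 0.0186). The LHCB2.1 call was lost without either gi-2 normal replicate, gi-2 drought replicate 2, wild-type normal replicate 2 or wild-type drought replicate 2, at most to 0.138 without the last. RBCS1A, a Rubisco small subunit gene, averaged 14200 CPM in gi-2 and 15200 CPM in wild type and was not called. In starch metabolism 1 of 23 rose, with a median of -0.06: GBSS1, the amylose synthase gene, had 10.5, 14.1, 14.8 and 13.5 CPM in gi-2 against 5.78, 4.1, 10.1 and 6.32 CPM in wild type (1.09 ± 0.19, adjusted p = 0.000193).

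Among 13 genes of carbon starvation and darkness 1 rose and 1 fell, with a median of 0.15, beside 3.69% of all genes called higher and 2.01% called lower. BT2, a BTB and TAZ domain protein gene that responds to sugar and time of day, had 14.8, 7.93, 1.44 and 1.78 CPM in gi-2 against 35.6, 43.8, 12.5 and 17.3 CPM in wild type. Within each regime the gi-2 libraries were lower, while gi-2 under normal watering overlapped wild type under drought, and the change was -2.53 ± 0.33 (adjusted p = 7.78e-06). BGAL4, a beta-galactosidase gene, had 26.2, 32.7, 10.8 and 11.4 CPM in gi-2 against 17.1, 14.4, 5.39 and 5.48 CPM in wild type (0.97 ± 0.19, adjusted p = 0.000787).

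Flavonoid and anthocyanin genes were lower in gi-2 in part of the list, and those calls depended on single libraries. Over both regimes 3 of 15 fell and 0 rose, with a median of -0.77, beside 2.01% of all genes called lower and 3.69% called higher. Under drought 7 fell and 0 rose (median -1.32), where 5.34% of all genes were called, and under normal watering 0 were called in either direction (median -0.22), where 1.19% were. The test of the difference between the regimes called 0 of the 15 members, so a difference between regimes was not shown. With 1 library left out, the count over both regimes was 0 to 1, and the drought count was 1 without either gi-2 drought replicate or wild-type drought replicate 2 and 2 without wild-type drought replicate 1. TT4, the chalcone synthase gene, had 11.9, 7.69, 32.4 and 16.0 CPM in gi-2 against 18, 16.2, 56.4 and 69.9 CPM in wild type (-1.06 ± 0.31, adjusted p = 0.039). TT4 was lower in gi-2 within each regime, but its call was lost without 6 of the 8 libraries (up to 0.179, without gi-2 normal replicate 2) and kept without gi-2 drought replicate 1 or wild-type drought replicate 1. LDOX, for anthocyanidin synthase and chosen here after its values were seen, had 10.4, 8.05, 18.4 and 13.8 CPM in gi-2 against 11.1, 11.1, 45.7 and 49.6 CPM in wild type. Under drought it differed by -1.54 ± 0.43 (adjusted p = 0.0361, lost without any 1 of the 4 drought libraries, up to 0.25 without gi-2 drought replicate 2). UF3GT, an anthocyanin sugar transferase gene, fell by 1.04 ± 0.31 over both regimes (adjusted p = 0.0471) and the regulator MYB111 by 1.36 ± 0.40 (0.0301). UF3GT kept its call only without gi-2 normal replicate 1 (0.242 without gi-2 normal replicate 2), and MYB111 lost it without gi-2 normal replicate 1 (0.176), either gi-2 drought replicate (0.0558 and 0.0816) or replicate 1 of either wild-type group (0.148 for normal and 0.0978 for drought).

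In the stress and defence lists the calls were as follows, where 3.69% of all genes tested were called higher and 2.01% lower. HSP101, a heat shock disaggregase gene, averaged 8.03 CPM in gi-2 and 12.6 CPM in wild type (-0.66 ± 0.13, adjusted p = 0.0005) and was the 1 of 16 heat shock genes that fell, with a median of -0.23 for the list. Of 18 salicylic acid and defence genes 2 fell and 0 rose, with a median of -0.40: WRKY54 (-0.49 ± 0.14, adjusted p = 0.0312) and PR5 (-1.16 ± 0.34, adjusted p = 0.0374). The count was 0 without gi-2 normal replicate 1, gi-2 drought replicate 1 or wild-type drought replicate 2, 3 without wild-type normal replicate 1, and 1 without any other library. Without wild-type normal replicate 2 the adjusted p was 0.332 for WRKY54 and 0.317 for PR5. GPX2, a glutathione peroxidase gene, was the 1 of 16 reactive oxygen genes that rose (77.8 CPM in gi-2, 59.2 CPM in wild type, 0.40 ± 0.08, adjusted p = 0.000466), with a list median of 0.01. In the jasmonic acid list 1 of 21 fell (AOC3, adjusted p = 0.0179, lost without 5 libraries, up to 0.119 without wild-type drought replicate 1), with a median of -0.05. Among aliphatic glucosinolate genes 1 of 14 rose (CYP79F2, adjusted p = 0.0286, kept only without replicate 1 of either wild-type group and at 0.191 without wild-type drought replicate 2) and 1 fell (MAM3, adjusted p = 0.00677, or 0.0742 without gi-2 drought replicate 1), with a median of 0.01.

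In the marker lists, read against 3.69% of all genes called higher and 2.01% called lower, 0 of 6 tested root markers were called, and 1 of 13 guard cell markers rose (KAT1, 0.41 ± 0.12, adjusted p = 0.0305, kept only without replicate 1 of either wild-type group and at 0.302 without wild-type normal replicate 2). Of the floral organ and meristem markers 1 of 4 tested rose, the meristem gene KNAT1 (18.5 CPM in gi-2, 11.7 CPM in wild type, 0.67 ± 0.17, adjusted p = 0.0104). KNAT1 lost its call without gi-2 normal replicate 1 (0.0716), gi-2 drought replicate 1 (0.0886), wild-type normal replicate 2 (0.0822) or wild-type drought replicate 1 (0.0644). Of 13 reference genes, ACT8 fell by 0.28 ± 0.08 (adjusted p = 0.0317, lost without 5 libraries, up to 0.244 without gi-2 normal replicate 1) and GAPC2 rose by 0.28 ± 0.09 (adjusted p = 0.0452, kept only without wild-type drought replicate 1 and at 0.2 without wild-type normal replicate 2), with a list median of -0.01. The part of tissue makeup in the results was not tested.

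**Figure D3:**
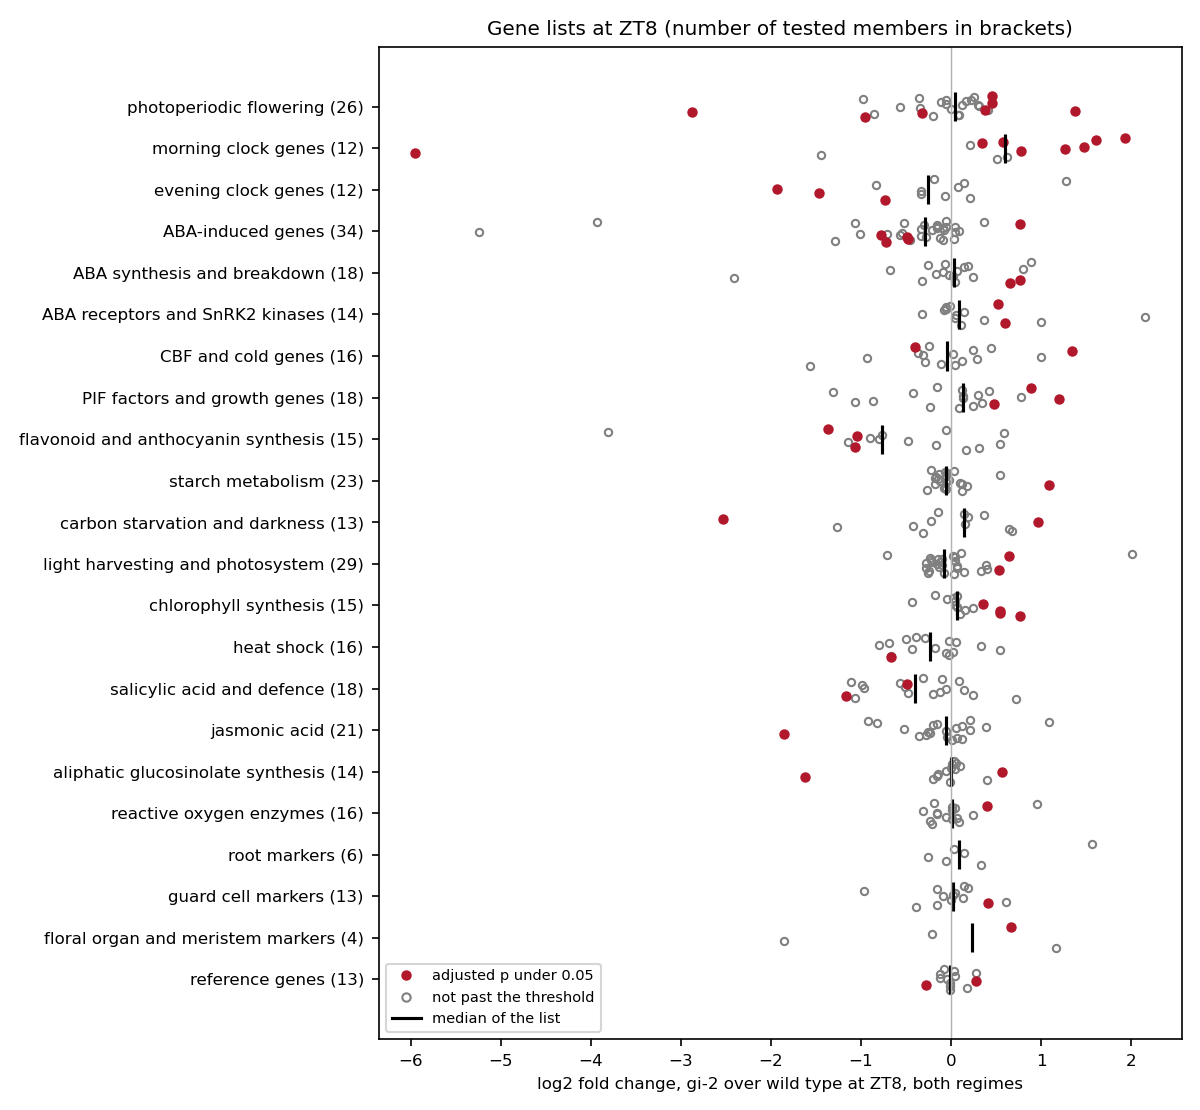
Log2 fold change of gi-2 over wild type at ZT8 over both regimes for every tested member of each list with at least 4 tested members, with filled red points for an adjusted p under 0.05, open points for the rest and a bar at the list's median. The medians lie furthest from 0 in the morning clock list (0.60) and in the flavonoid and anthocyanin list (-0.77).

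Taken for each regime alone as contrasts of the same fit, 227 genes were called under normal watering (1.19% of those tested, 158 higher and 69 lower) and 1017 under drought (5.34%, 639 higher and 378 lower). When scaled by library totals alone, 54.2% of the drought calls were higher in gi-2, against 62.8% here. The normal count was 83 and 97 without gi-2 normal replicate 1 or 2, and 95 and 96 without wild-type normal replicate 1 or 2. The drought count was 536 and 438 without gi-2 drought replicate 1 or 2, and 423 without wild-type drought replicate 2. In both regimes alone and in the same direction, 130 genes were called. The number of calls in a regime is not a test of a difference between regimes. The sign of that difference, drought minus normal watering, does not tell in which regime the effect was larger. The test of the difference called 68 genes (0.357%), of which 50 had a positive and 18 a negative difference. That count was 14 without wild-type normal replicate 1, 17 without gi-2 drought replicate 2, 21 without wild-type drought replicate 2 and 28 without either gi-2 normal replicate. It was 127 with DESeq2 and 327 without the filter on low counts. Without the filter the split turned to 149 positive and 178 negative, and with only the 8 ZT8 libraries to 61 and 66, or 72 and 86 with a replicate block as well.

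The genes with the largest positive differences between regimes had in common that wild-type drought libraries were low and lay below the gi-2 drought libraries. In gi-2 too, PUP18, DELTA-TIP and FLA9 were lower under drought than under normal watering, but by less than in wild type. MSRB6, a methionine sulfoxide reductase gene, had 87.8, 90.7, 105 and 113 CPM in gi-2 against 78.5, 106, 30.5 and 33.3 CPM in wild type. Its gi-2 effect differed between drought and normal watering by 1.84 ± 0.30 (adjusted p = 0.00183), and this call held with any 1 library left out. DELTA-TIP, a water channel gene of the vacuole membrane, had 376, 376, 287 and 322 CPM in gi-2 against 507, 334, 101 and 99.8 CPM in wild type (1.76 ± 0.31, adjusted p = 0.00313, or 0.0735 without wild-type normal replicate 1). The purine permease gene PUP18 had 37.0, 39.9, 20.1 and 32.7 CPM in gi-2 against 40.7, 32.6, 5.39 and 7.8 CPM in wild type (1.90 ± 0.34, adjusted p = 0.00249, or 0.0811 without gi-2 drought replicate 2). In all 3 genes the wild-type drought libraries were the lowest of the 8.

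The same order was seen in a pair of cell-wall genes. XTH6, a xyloglucan-modifying enzyme gene, had 118, 148, 103 and 133 CPM in gi-2 against 135, 114, 32.4 and 25.7 CPM in wild type (1.91 ± 0.35, adjusted p = 0.00712). FLA9, an arabinogalactan protein gene, had 32.0, 38.5, 24.5 and 29.5 CPM in gi-2 against 48.3, 33.5, 9.83 and 7.27 CPM in wild type (1.81 ± 0.37, adjusted p = 0.0203). Both calls were lost without gi-2 normal replicate 1, gi-2 drought replicate 2, wild-type normal replicate 1 or wild-type drought replicate 2, at most to 0.104 for XTH6 and 0.185 for FLA9, each without the last (FLA9 also at 0.185 without wild-type normal replicate 1).

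Genes with the largest negative differences fell into more than 1 pattern. FMO_GS-OX4, an enzyme of glucosinolate side chains, had 12.5, 17.1, 11.7 and 9.62 CPM in gi-2 against 18.0, 16.1, 51.9 and 40.6 CPM in wild type, so that wild-type drought libraries stood alone (-1.91 ± 0.44, adjusted p = 0.0409, lost whichever library was left out, up to 0.284 without gi-2 drought replicate 2). The bZIP factor gene GBF3 had 9.8, 9.49, 11.4 and 9.32 CPM in gi-2 against 10.5, 6.51, 24.2 and 28.0 CPM in wild type, again with the wild-type drought libraries apart. Its difference was -1.58 ± 0.34 (adjusted p = 0.0211), lost without 5 of the libraries (0.187 without wild-type normal replicate 2) and kept without gi-2 drought replicate 1, wild-type normal replicate 1 or wild-type drought replicate 1. AT4G11890, by contrast, was higher in gi-2 than in wild type under normal watering and lower under drought, with 12.7, 11.3, 2.33 and 1.78 CPM in gi-2 against 4.45, 5.88, 5.13 and 7.38 CPM in wild type. Its difference was -2.72 ± 0.52 (adjusted p = 0.0046, lost without gi-2 drought replicate 2 at 0.0672, wild-type normal replicate 1 at 0.0607 or wild-type drought replicate 2 at 0.073). AT5G14940 (-2.72 ± 0.63, adjusted p = 0.0362) was called only without gi-2 normal replicate 1 or gi-2 drought replicate 1 among the fits with a library left out (up to 0.3 without gi-2 drought replicate 2), and AT4G38080 (-1.90 ± 0.45, adjusted p = 0.0459) only without wild-type drought replicate 1 (up to 0.333 without wild-type drought replicate 2).

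**Figure D4:**
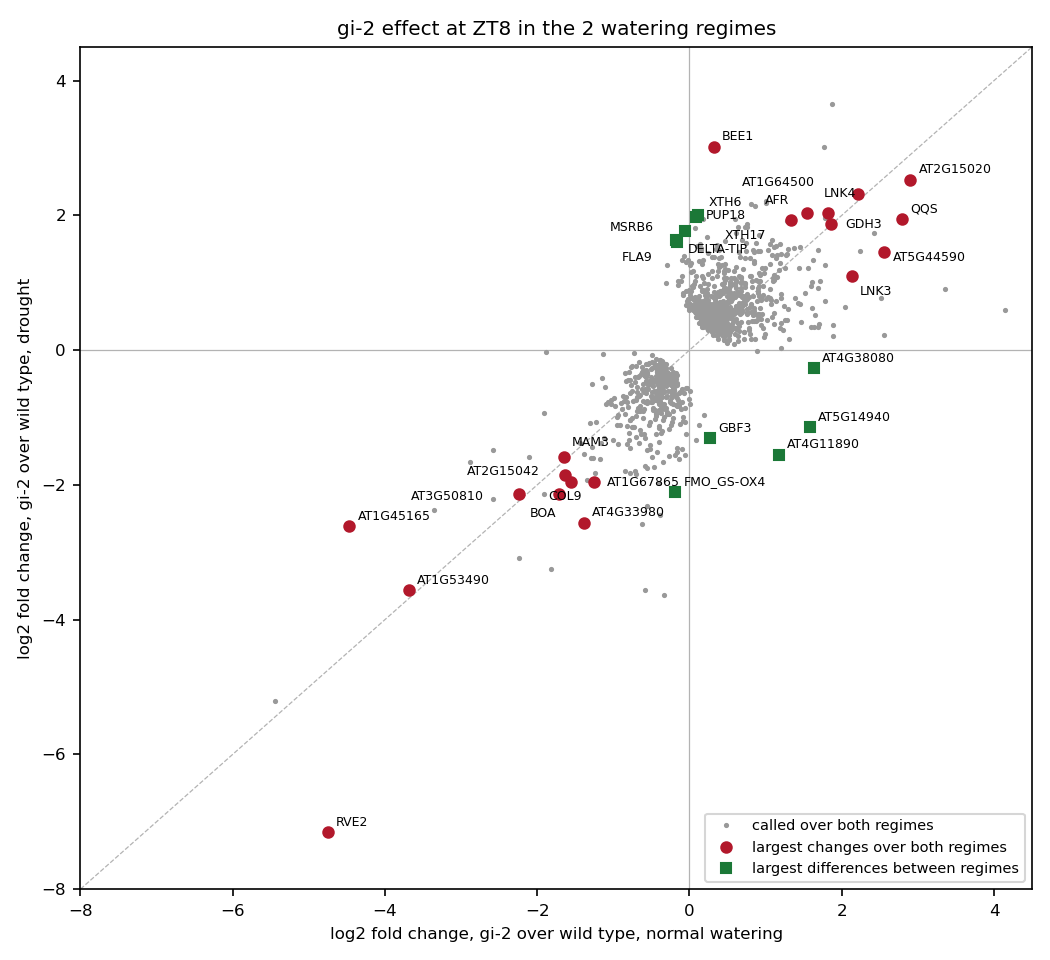
Log2 fold change of gi-2 over wild type at ZT8 under normal watering (horizontal) and drought (vertical) for the 1084 genes called over both regimes, of which 7 lie outside the axes, with named genes in red (largest changes over both regimes) and green (largest differences between regimes), not all of which were called over both. AT1G53490 lies near the diagonal at the lower left (-3.69 and -3.56) and RVE2 below it (-4.75 and -7.16), while XTH6, PUP18, MSRB6, FLA9 and DELTA-TIP lie near 0 on the horizontal axis and between 1.60 and 2.01 on the vertical axis.

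Whether the gi-2 effect at ZT8 differed from its mean at ZT1, ZT12 and ZT16 was tested with the same ZT8 libraries and the 24 gi-2 and wild-type libraries of the other times. For 1 of these, gi-2 drought ZT16 replicate 2, the title names gi-2 and the genotype tag wild type. The title was followed here, and 546 genes were called when that library was left out. The test with all libraries called 566 genes (2.97%), of which 226 had a positive difference (ZT8 minus the mean of the other times) and 340 a negative one. Levels at the other times show where ZT8 stands in the daily course, in which ZT12 and ZT16 fell into the light extension. GI in gi-2 averaged 35.7 ± 2.81, 140 ± 8.48, 104 ± 6.56 and 52.0 ± 0.748 CPM at ZT1, ZT8, ZT12 and ZT16 under normal watering (SD, n = 2 each). Wild type averaged 72.5 ± 6.68, 301 ± 6.9, 63.4 ± 2.73 and 12.5 ± 1.8 CPM of GI at those times. GI was thus lower in gi-2 at ZT1 and ZT8 and higher in gi-2 at ZT12 and ZT16, and the ZT8 effect differed by -1.47 ± 0.12 from the mean of the other times (adjusted p = 1.9e-11).

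Several clock genes that were not called at ZT8 differed more afterwards. PRR5 averaged 124 and 56.5 CPM in gi-2 at ZT8 and ZT12 under normal watering, against 113 and 12.9 CPM in wild type. PRR7, for a repressor of the day phase, averaged 195 and 94.3 CPM in gi-2 at the same times, against 159 and 31.6 CPM in wild type. FKF1 averaged 106 and 69.4 CPM in gi-2, against 116 and 34.8 CPM in wild type. For these genes ZT8 was the last sampled time before wild type dropped further than gi-2, and the ZT8 effect minus the mean of the others was -1.86 ± 0.24 for PRR5 (adjusted p = 9.34e-06), -1.28 ± 0.13 for PRR7 (adjusted p = 9.11e-10) and -1.2 ± 0.13 for FKF1 (adjusted p = 1.73e-08). LNK1, which was called at ZT8, followed the same course, with 105 and 57.9 CPM in gi-2 at ZT8 and ZT16 against 78.5 and 9.05 CPM in wild type (-0.73 ± 0.09, adjusted p = 5.4e-07).

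For other transcripts ZT8 was the sampled time at which wild type stood at its highest or lowest level. ELF4 in wild type peaked at ZT8 among the sampled times, at 55.9 CPM under normal watering and 78.2 CPM under drought, while in gi-2 it stood at 21.8 and 26.7 CPM, and at ZT16 the genotypes were close (18.5 and 21.0 CPM in gi-2 against 24.1 and 25.5 CPM in wild type). AT2G15020 and AT1G64500 were at their lowest sampled level at ZT8 in wild type. Under normal watering AT2G15020 averaged 82.5 CPM at ZT1 and 18.8 CPM at ZT8 in gi-2, against 82.3 and 2.18 CPM in wild type, and its ZT8 effect lay 1.86 ± 0.17 above the others (adjusted p = 2.72e-10). AT1G64500 averaged 80.8 and 18.7 CPM in gi-2, against 114 and 4.01 CPM in wild type (1.73 ± 0.15, adjusted p = 8.8e-11). RVE2 had only begun its rise in wild type by ZT8: it averaged 0.779 and 12.8 CPM in gi-2 at ZT8 and ZT16 under normal watering, against 20.7 and 152 CPM in wild type.

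For CIPK20, a protein kinase gene, gi-2 averaged 35.5 CPM at ZT8 and 12.5 CPM at ZT12 under normal watering, against 16.9 CPM and 0 counts in wild type. Because both wild-type libraries of a group were at 0 at some of the other times for CIPK20, PRR9, ELF4 and AT4G33980, their fitted difference between times depends on the small count added by the fit and is no estimate of size. GPT2, a glucose-6-phosphate carrier of plastids, averaged 4.73 and 4.81 CPM in gi-2 at ZT8 and ZT16 under normal watering, against 2.49 and 15.7 CPM in wild type, so the order of the genotypes differed between these times (2.15 ± 0.44, adjusted p = 0.00241).

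**Figure D5:**
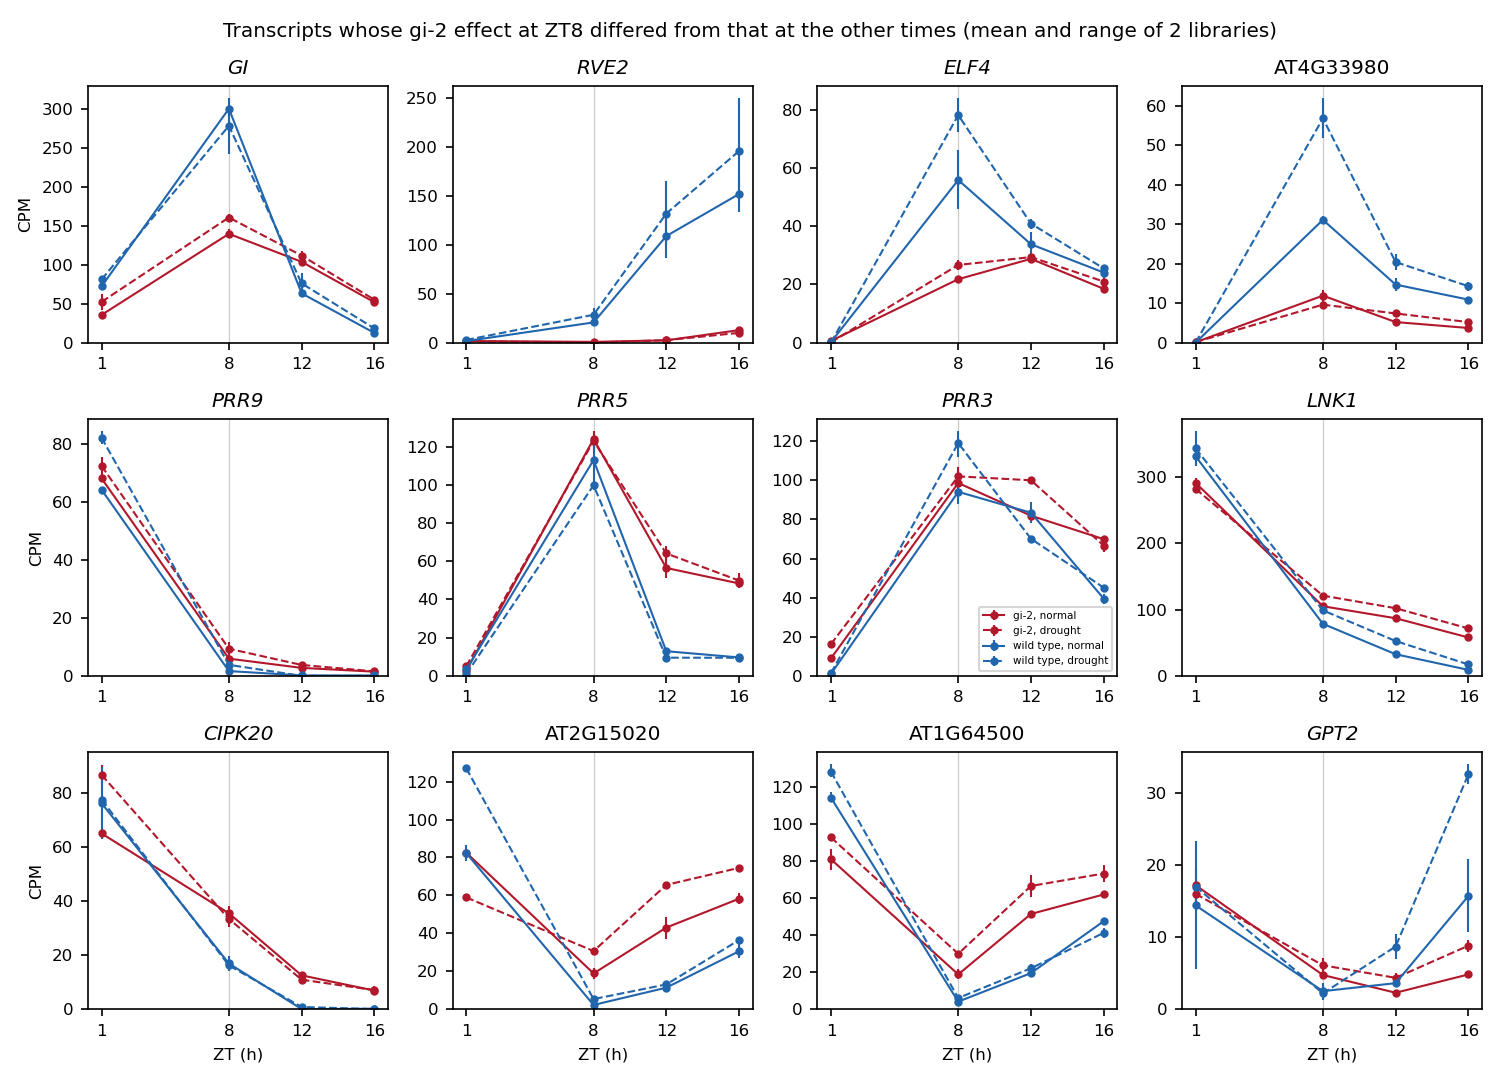
Mean level in CPM (points, with bars for the range of the 2 libraries) of 12 transcripts at ZT1, ZT8, ZT12 and ZT16 in gi-2 (red) and wild type (blue), under normal watering (solid) and drought (dashed), with a grey line at ZT8. GI in wild type peaks at 301 CPM under normal watering against 140 CPM in gi-2, and the curves of the genotypes cross between ZT8 and ZT12.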

How the data were processed

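The deposited table holds RSEM expected counts per gene, 1 column for each of 48 libraries, which the authors made from polyadenylated RNA libraries with Bowtie2, RSEM and TAIR10, per the submitters' processing notes. Versions and read strand were not given in the sources used here, so a gene cannot be told from one that overlaps it on the other strand. Expected counts were rounded to whole numbers (98.6% of all values, zeros included, were whole as deposited), and 3329 of 26988 genes at 0 everywhere were dropped. In each library 66.8% to 80.2% of whole counts from 1 to 10 were even, so 1 count may stand for less than 1 RNA fragment. Of the 26988 names, 743 could not be matched to 1 locus.

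Genes were kept by edgeR's filterByExpr, scaled by TMM (factors of 0.954 to 1.07 at ZT8) and fitted with 24 group means and robust quasi-likelihood dispersions (edgeR 4.0.16, R 4.3.3). Contrasts averaged both regimes, took each alone, took their difference, or took ZT8 minus the mean of the other times. A gene was called at a Benjamini-Hochberg adjusted p under 0.05. Each SE of a log2 fold change was taken as its size divided by the square root of the F of its test. It is approximate, most of all for genes near 0 counts. The script was tested on simulated data. The 2 libraries of a group are separate pools of plants of 1 experiment, so p-values measure the spread between such pools. Totals of 4714569 to 14452135 counts limit precision for genes at a few CPM, and limits from 0 counts cover counting error only. Replicates of each group differed by more than sampling noise, but not equally. The chi-square of their counts per degree of freedom was highest in wild-type drought, at 12.8. It was 3.98 in gi-2 normal, 4.37 in gi-2 drought and 5.32 in wild-type normal. The correlation of log2 levels was lowest in wild-type normal, at 0.97.

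Named genes were GI, the 10 largest rises and falls with at least 2 CPM and separate libraries, the 5 largest rises and falls in mean CPM, all clock and photoperiod members, up to 4 called and 2 uncalled members of each other list, and 5 each way for each difference, with exceptions stated. The members and lists were chosen with earlier results of these data known. Alternatives were other scaling, DESeq2 1.42.0, other filters, fewer libraries and a replicate block. Same-numbered replicates did not deviate together in all pairs of groups, so the numbers were not taken to pair libraries. Promoters came from the reference genome, and matches were sought on both strands.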

Additional observations from a re-analysis of the deposited data

Results flagged for a closer look

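Genes whose gi-2 effect at ZT8 differed between drought and normal watering (edgeR, adjusted p under 0.05) are given first, as the log2 fold change of gi-2 over wild type under drought minus that under normal watering. The difference was positive for XTH6 (1.91), PUP18 (1.90), MSRB6 (1.84), FLA9 (1.81) and DELTA-TIP (1.76). It was negative for AT4G11890 (-2.72), AT5G14940 (-2.72), FMO_GS-OX4 (-1.91), AT4G38080 (-1.90), GBF3 (-1.58) and ERD10 (-1.23). MSRB6 was the only 1 of these 11 that stayed called with any 1 of the 8 libraries left out.

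Genes whose gi-2 effect at ZT8 differed from its mean at ZT1, ZT12 and ZT16 are given as the first minus the second, in log2. Among clock genes the difference was negative for RVE2 (-2.61), ELF4 (-2.26), PRR9 (-2.14), PRR5 (-1.86), PRR3 (-1.46), PRR7 (-1.28), LUX (-0.89), TOC1 (-0.80), LNK1 (-0.73) and TCP21 (-0.64), and positive for LHY (2.52) and RVE4 (0.57). Among photoperiod genes it was negative for GI (-1.47), FKF1 (-1.2), CDF3 (-0.81) and COL5 (-0.77) and positive for COL1 (1.09). Of the genes with the largest differences, it was negative for CIPK20 (-3.65) and AT4G33980 (-2.21) and positive for GPT2 (2.15), AT2G15020 (1.86), AT1G64500 (1.73), TT4 (1.68) and AT4G28290 (1.64). For CIPK20, PRR9, ELF4 and AT4G33980 a wild-type group stood at 0 at another time, so the fitted size depends on the count added by the fit.

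Some of these calls were lost with 1 library left out. RVE2 had an adjusted p of 0.0557 without gi-2 normal replicate 1 and 0.0659 without gi-2 drought replicate 1, and TT4 had 0.0551 and 0.0617 without the same libraries. LHY had 0.143 without gi-2 normal replicate 2 and 0.462 without gi-2 drought replicate 1, and PRR9 had 0.267 without wild-type normal replicate 2. The other named differences from the mean of the other times kept their calls in these fits. No explanation for any of these differences was tested.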

How the results depend on the processing

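GI was lower in gi-2 under every alternative, by -1.04 to -0.85 with 1 library left out. The count over both regimes (1084) was 614 with only the 8 ZT8 libraries, 551 with those and a replicate block, and 649 to 1019 with 1 library left out. Under normal watering the count (227) was 386 without the filter on low counts and 83 to 231 with 1 library left out. Under drought (1017) it was 423 to 998 with 1 library left out. The count for the difference between regimes (68) was 127 with DESeq2, 327 without the filter, 127 with only the 8 libraries, 158 with those and a replicate block, and 14 to 86 with 1 library left out. Of its calls, 73.5% were positive here, against 45.6% without the filter and 48% with only the 8 libraries. The count for ZT8 against the other times (566) was 859 without the filter and 398 to 547 with 1 library left out. Fits with only 8 libraries, or with 1 left out, have fewer samples from which to estimate the spread, and a lone library of a group is assumed to vary like the other groups. Other causes of these shifts were not tested.

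With all 48 libraries and a replicate block the counts were 1210, 256, 1144, 85 and 638. Deviations of same-numbered ZT8 libraries had correlations of -0.148 to 0.244 over 6 pairs of groups, so the block shows only how the counts move. Of 85 named genes called over both regimes, 38 kept the call in every setting and 47 lost it in at least 1. Over 6362 values under other settings and 5264 with 1 library left out, no gene result changed sign where it was called here or in the alternative. Changes of sign in results called in neither were not counted. Totals of 4714569 to 14452135 counts make small differences of low genes undetectable.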

Other observations

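The genes described here were chosen after their values were seen. MRD1 (AT1G53480, chr1:19963047-19964712) had 0 counts in the 4 gi-2 libraries at ZT8, against 152 counts in the 4 wild-type libraries, a mean of 4.43 CPM. The wild-type mean of MRD1 was 56.1-fold a floor of 3 counts over the 4 gi-2 libraries (edgeR adjusted p = 7.65e-09 for the difference between genotypes). As 1 count may stand for less than 1 RNA fragment, this ratio is no lower limit for the fall of MRD1. Its overlapping neighbour AT1G53490 (chr1:19963267-19966952) averaged 2.24 CPM in gi-2 and 26.7 CPM in wild type, and reads shared by the 2 genes cannot be split. The pair was low in gi-2 at the other times too. AT1G53490 averaged 0.841, 1.74 and 1.92 CPM at ZT1, ZT12 and ZT16 in gi-2, against 29.8, 29.8 and 31.3 CPM in wild type. The genes on either side were not called: MSL4 averaged 3.19 CPM in gi-2 and 3.31 CPM in wild type, AT1G53460 12.8 and 12.9 CPM, MUM4 90.2 and 84.7 CPM, and MPK18 70.0 and 70.1 CPM.

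AT3G28500 also had 0 counts in gi-2, against 17 counts in wild type (edgeR adjusted p = 0.0255). The wild-type mean of AT3G28500 was 5.76-fold the same floor, which is likewise no lower limit for its fall. Its call was lost without either normal gi-2 library (0.0764 and 0.0807), either drought gi-2 library (0.114 and 0.0599), wild-type normal replicate 2 (0.105) or wild-type drought replicate 1 (0.0683).

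The neighbourhood of GI on chromosome 1 was described by its share of calls. Within 1 Mb of GI, 14 of 353 genes tested were called over both regimes (3.97%), and within 2 Mb 37 of 729 (5.08%), while over chromosomes 1 to 5 the shares were 5.65%, 6.06%, 5.72%, 5.74% and 5.59%.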
